A study of Mus musculus with 4 samples.

Results

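Retnla, Mgl2, Cd209a, Clec10a, Chil3, Arg1, F13a1, Folr2, Cbr2 and Ccl24 are genes of alternatively activated macrophages and of C-type lectin-bearing myeloid cells, and they were followed here through the leukocytes of the mouse ovary. They are 10 of the 32285 genes counted, and were found by their symbols. Droplet single-cell RNA sequencing had been run on viable CD45+ cells sorted from the ovaries of C57BL/6J females that were 10 to 12 weeks old. One group of 5 mice was given gonadotropin, the hormone signal for follicle growth and ovulation, and the untreated group of 5 mice was given saline, and ovaries were taken 48 h later. The mice of a group carried separate hashtag antibodies and shared 1 pool and 1 library, so the treatment cannot be told apart from its pool and library.

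In the alternative activation of macrophages, interleukin-4 and interleukin-13 act through their receptors and the transcription factor STAT6, and Retnla, Chil3 and Arg1 are the mouse genes best known for it. C-type lectins are calcium-dependent receptors that bind sugars on microbes and on the body's own glycoproteins, and Cd209a, Mgl2 and Clec10a encode such receptors. In many tissues Folr2 and Cbr2 mark resident macrophages, and the ovary draws myeloid cells in around ovulation and the formation of the corpus luteum.

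The genes lie on several chromosomes (GRCm38.p6, matched by symbol). Mgl2 (chromosome 11, 70130125 to 70137542) and Clec10a (chromosome 11, 70166623 to 70170836) are neighbouring copies of one ancestral lectin gene, so some of their UMIs may be exchanged between them, as may those of Chil3 and its close relative Chil4. RefSeq promoter windows, from 250 bases before to 50 after the transcription start, were matched for 7 of the 10 genes: Retnla, Mgl2, Cd209a, Chil3, F13a1, Folr2 and Cbr2. Windows of 5 genes are shown, because the results turn on them: Retnla and Chil3 for their levels in few cells and in monocyte-like cells, Cd209a and Mgl2 for dendritic-like cells, and Cbr2 for tissue macrophage-like cells. They are written 5′ to 3′ on the strand of the gene, with motif matches in capitals.
Retnla, chr16:48842359-48842658, plus strand: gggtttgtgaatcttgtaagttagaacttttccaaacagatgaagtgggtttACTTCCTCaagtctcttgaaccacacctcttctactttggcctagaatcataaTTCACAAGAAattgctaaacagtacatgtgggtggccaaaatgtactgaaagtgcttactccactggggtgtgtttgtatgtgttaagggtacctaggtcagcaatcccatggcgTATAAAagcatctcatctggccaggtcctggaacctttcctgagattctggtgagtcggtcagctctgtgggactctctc
Chil3, chr3:106167515-106167814, minus strand: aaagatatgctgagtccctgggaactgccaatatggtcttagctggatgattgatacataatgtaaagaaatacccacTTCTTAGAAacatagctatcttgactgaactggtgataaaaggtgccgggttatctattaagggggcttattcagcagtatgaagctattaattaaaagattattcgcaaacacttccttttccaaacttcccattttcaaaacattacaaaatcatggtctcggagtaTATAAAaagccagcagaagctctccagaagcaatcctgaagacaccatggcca
Cd209a, chr8:3748935-3749234, minus strand: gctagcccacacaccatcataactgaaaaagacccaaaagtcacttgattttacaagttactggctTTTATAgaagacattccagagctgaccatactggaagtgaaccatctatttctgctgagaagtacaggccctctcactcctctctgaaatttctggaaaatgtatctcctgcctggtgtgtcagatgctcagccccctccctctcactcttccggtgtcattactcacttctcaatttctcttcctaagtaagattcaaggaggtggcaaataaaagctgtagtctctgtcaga
Mgl2, chr11:70130107-70130406, plus strand: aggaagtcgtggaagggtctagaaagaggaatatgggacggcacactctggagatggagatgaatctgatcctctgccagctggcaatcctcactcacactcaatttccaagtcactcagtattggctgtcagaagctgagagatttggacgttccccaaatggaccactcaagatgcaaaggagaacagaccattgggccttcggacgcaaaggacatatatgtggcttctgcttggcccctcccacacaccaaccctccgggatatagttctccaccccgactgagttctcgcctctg
Cbr2, chr11:120731972-120732271, minus strand: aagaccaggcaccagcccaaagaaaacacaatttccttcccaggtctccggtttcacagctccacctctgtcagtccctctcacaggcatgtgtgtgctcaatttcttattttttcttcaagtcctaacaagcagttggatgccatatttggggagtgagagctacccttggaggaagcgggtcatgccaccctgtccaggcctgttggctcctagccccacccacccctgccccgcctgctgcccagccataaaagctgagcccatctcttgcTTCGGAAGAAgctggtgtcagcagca

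Searched on both strands were TTCNNNNGAA (the spacing STAT6 prefers), TTCNNNGAA (the spacing of other STAT proteins), TATAAA and GAGGAAGT (the core bound by PU.1). No search string contains another. The Retnla window held TTCACAAGAA at position -145 from the start, TATAAA at -30 and, on the minus strand at -198, GAGGAAGT, read here as ACTTCCTC. The Chil3 window held TTCTTAGAA at -172 and TATAAA at -3. Cd209a held TATAAA on the minus strand at -184, Cbr2 held TTCGGAAGAA at 25, and Mgl2 held no match. The Mgl2 window was set on a start at 70130357, downstream of the gene start given above (70130125). It lies mostly inside the annotated gene and does not cover the region before that gene start. Of 32851 windows of this length, 6.95% held TTCNNNNGAA, 8.30% TTCNNNGAA, 13.6% TATAAA and 3.20% GAGGAAGT. A match is a run of letters and does not show a bound site.

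The filters kept 2423 cells of the gonadotropin library and 2495 of the untreated library, with 2608262 to 7097779 summed UMIs per gonadotropin mouse and 2559097 to 6500466 per untreated mouse. Myeloid cells were gated on marker genes other than the 10, and are called by the gate. The gates held 23 and 29 dendritic-like, 112 and 48 tissue macrophage-like, 8 and 11 peritoneal macrophage-like and 114 and 79 monocyte-like cells of the gonadotropin and untreated libraries. All markers of each gate had UMIs in its cells in both libraries, except Fscn1 in gonadotropin dendritic-like cells. The gates were set on these markers, so this does not check them. The monocyte markers summed to 4622 and 4304 CPM in gonadotropin and untreated monocyte-like cells. They reached 5460 and 4093 CPM in tissue macrophage-like and 8882 and 7380 CPM in peritoneal macrophage-like cells, but 1297 and 917 CPM in dendritic-like cells. The tissue macrophage markers summed to 19402 and 19747 CPM in gonadotropin and untreated tissue macrophage-like cells. In peritoneal macrophage-like cells they summed to 16838.5 and 37007 CPM, so in the untreated library they were higher there than in their own gate. The dendritic and peritoneal markers were highest in their own gates. The 4 types made up 11.6% ± 3.25 of the cells of a gonadotropin mouse and 6.83% ± 2.49 of those of an untreated mouse (SD, n = 5 each, exact two-sided permutation p = 0.0476). Tissue macrophage-like cells alone made up 5.29% ± 2.07 and 2.21% ± 1.0 (exact permutation p = 0.0397, adjusted over 4 types p = 0.143). The libraries shared 4 barcodes, 2 of them among kept cells. In B cells, which should lack these genes, 1.28% of gonadotropin and 1.20% of untreated cells had a Retnla UMI, and none of the other 9 genes was found in over 0.553% of cells, at median depths of 5876 and 6492 UMIs.

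**Figure D1:**
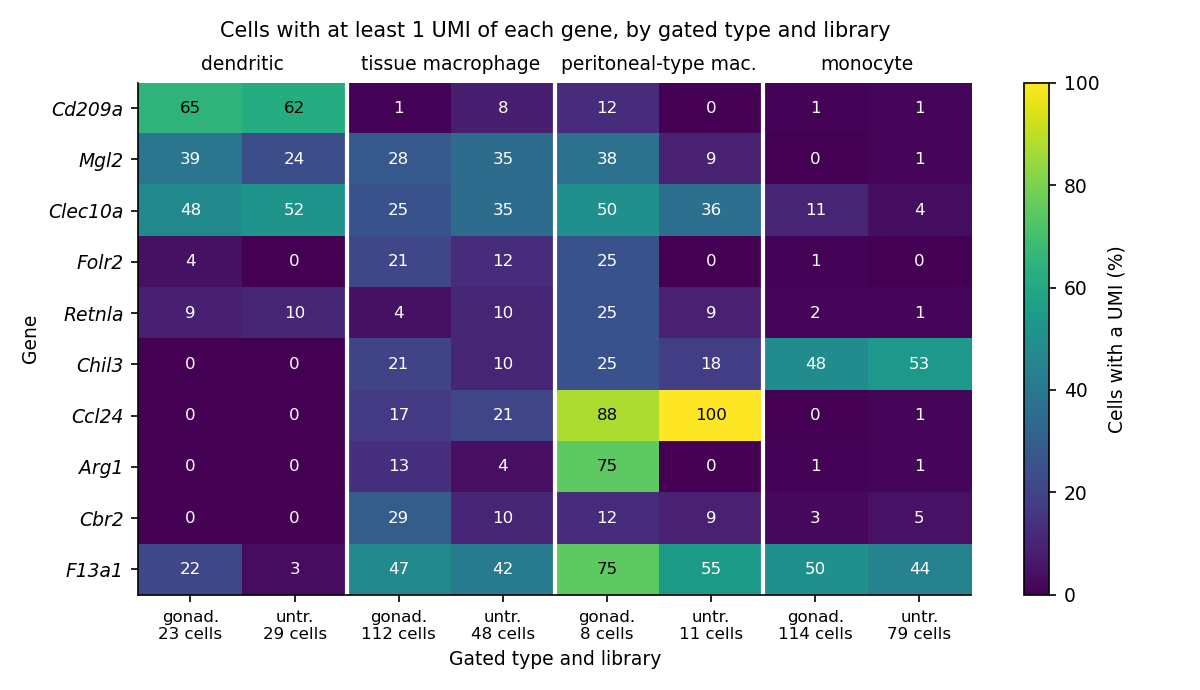
Share of cells (%, colour and figures in the boxes) with at least 1 UMI of each gene, for the 4 gated types, with the gonadotropin library left of the untreated library in each pair. Cd209a was found mostly in dendritic-like cells, Chil3 mostly in monocyte-like cells and Ccl24 in nearly all peritoneal macrophage-like cells of both libraries.

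Of the lectin receptors, Cd209a, a mouse relative of human DC-SIGN, marked the dendritic-like cells. It was detected in 15 of 23 gonadotropin and 18 of 29 untreated dendritic-like cells, with 275 and 392 UMIs, or 710.4 and 906 CPM (UMIs scaled to a sum of 1000000; counting intervals 629 to 799 and 818 to 1000). Tissue macrophage-like cells had 1 and 14 UMIs of it, peritoneal macrophage-like cells 1 and 0, and monocyte-like cells 1 and 1. Median depth was 18388 and 15413 UMIs in dendritic-like cells and 3564 and 4800 in tissue macrophage-like cells.

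Mgl2, a lectin for galactose and N-acetylgalactosamine, was detected in 9 of 23 gonadotropin and 7 of 29 untreated dendritic-like cells, with 205 and 120 UMIs (529.5 and 277 CPM). Clec10a, its neighbour, was detected in 11 of 23 and 15 of 29, with 123 and 193 UMIs (318 and 446 CPM). The 2 lectins were nested within Cd209a: all 16 dendritic-like cells with Mgl2 also had Cd209a, and so did 25 of the 26 with Clec10a. All 3 genes were detected in 14 of the 52 cells and none of them in 18. The cells with Cd209a were deeper, with a median of 17521 UMIs, against 8570 in the 19 cells without it, and the part of depth in this nesting was not tested.

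**Figure D2:**
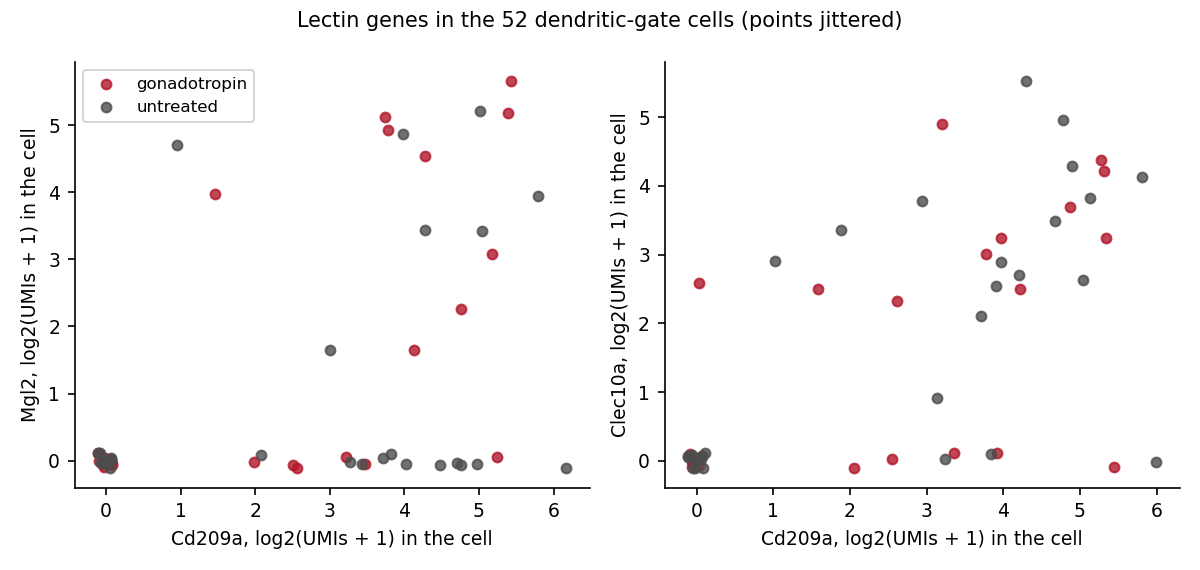
UMIs of Mgl2 (left) and Clec10a (right) against those of Cd209a in each dendritic-like cell, on log2(UMIs + 1) scales with points jittered, gonadotropin in red and untreated in grey. No cell had Mgl2 without Cd209a, and 1 had Clec10a without it.

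Against the average of the other 3 gated types, 14.1% of 5626 genes tested were called in dendritic-like cells, 7.79% higher and 6.31% lower (edgeR's quasi-likelihood test on sums per mouse and type, Benjamini-Hochberg adjusted). Of the 10 genes, 4 were called higher and 3 lower. Cd209a (adjusted p = 1.33e-09), Clec10a (adjusted p = 1.77e-08) and Mgl2 (adjusted p = 3.36e-06) were higher in edgeR's test. Retnla was higher too (adjusted p = 0.0129), with UMIs in 5 dendritic-like cells, and lost the call without untreated mouse 5 (adjusted p = 0.141). Its pooled levels were 145 and 169 CPM in gonadotropin and untreated dendritic-like cells, below the 348 and 7131 CPM of tissue macrophage-like cells. Chil3 and Ccl24 had no UMI in any of the 52 dendritic-like cells, and F13a1 had 34 UMIs in 5 gonadotropin and 10 in 1 untreated cell. These 3 were lower (adjusted p = 0.00307 for Chil3, 0.00405 for Ccl24 and 0.00131 for F13a1, edgeR), and Ccl24 lost the call without untreated mouse 5 and with clusters in place of gates (adjusted p = 0.465, edgeR). Only 5 sums of dendritic-like cells with at least 5 cells entered, and fitted fold changes are left out because several types had no UMI of a gene.

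Between the groups, no fit could be made within dendritic-like cells, since too few mice had 10 of them. The gonadotropin mice had 0 Cd209a UMIs in 1 cell, 94 in 9, 54 in 4, 104 in 6 and 23 in 3, in the order of mice 1 to 5. The untreated mice had 17 in 2 cells, 80 in 7, 7 in 2, 106 in 6 and 182 in 12. Cd209a was thus found in dendritic-like cells of 4 gonadotropin and all 5 untreated mice. Mgl2 had 0, 21, 29, 120 and 35 UMIs in dendritic-like cells of gonadotropin mice, against 9, 9, 2, 25 and 75 in those of untreated mice. Gonadotropin mouse 4 gave 120 of the 205 UMIs of its group, 53 of them in 1 cell. Clec10a had 5, 48, 24, 46 and 0 UMIs in gonadotropin mice and 6, 56, 13, 21 and 97 in untreated mice.

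Outside the dendritic-like cells the 3 lectins parted. Cd209a had 68 and Clec10a 81 UMIs in the plasmacytoid dendritic gate over both libraries. In the cluster led by Bst2, Tcf4, Irf8 and Siglech, 20 of 34 cells had Cd209a and 26 had Clec10a, whereas Mgl2 had 8 UMIs in 7 cells. Tissue macrophage-like cells had Mgl2 in 31 of 112 gonadotropin and 17 of 48 untreated cells, with 63 and 69 UMIs and at most 8 and 13 in 1 cell. They had Clec10a in 28 and 17 cells, with 45 and 27 UMIs. Mgl2-positive tissue macrophage-like cells were shallow, with a median of 2503 UMIs against 7226.5 in those without it, while Clec10a-positive ones had 10766 against 2836.

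Monocyte-like cells nearly lacked Mgl2, with 0 and 1 UMIs, and had Clec10a as single molecules in 12 of 114 gonadotropin cells and at 5 UMIs in 3 of 79 untreated cells. Over all CD45+ cells of a mouse, Mgl2 averaged 14.8 ± 5.67 CPM in gonadotropin and 10.3 ± 6.39 CPM in untreated mice (log2 change 0.45 ± 0.39 SE). Cd209a averaged 21.7 ± 14.5 and 24.7 ± 19.7 CPM (log2 change -0.25 ± 0.57), and Clec10a 17.1 ± 10.2 and 11.7 ± 6.18 CPM (log2 change 0.43 ± 0.40; SD, n = 5 each). None passed edgeR's test, with adjusted p-values of 0.525, 0.851 and 0.565 for Mgl2, Cd209a and Clec10a. In such sums, fewer cells of a type and less RNA per cell cannot be told apart.

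Of the secreted proteins, Retnla (resistin-like alpha, also known as FIZZ1 or RELM alpha) was concentrated in few cells. It had 514 UMIs in 40 gonadotropin cells and 4655 UMIs in 45 untreated cells. Few of them held most UMIs: 9 cells had at least 100, 1 from gonadotropin mouse 4 with 264 and 8 from untreated mice with 963, 748, 642, 638, 518, 477, 371 and 188. The top 5 cells held 67.9% of all Retnla UMIs. Untreated mouse 2 had 8 cells with 1 UMI each and no cell with more.

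**Figure D3:**
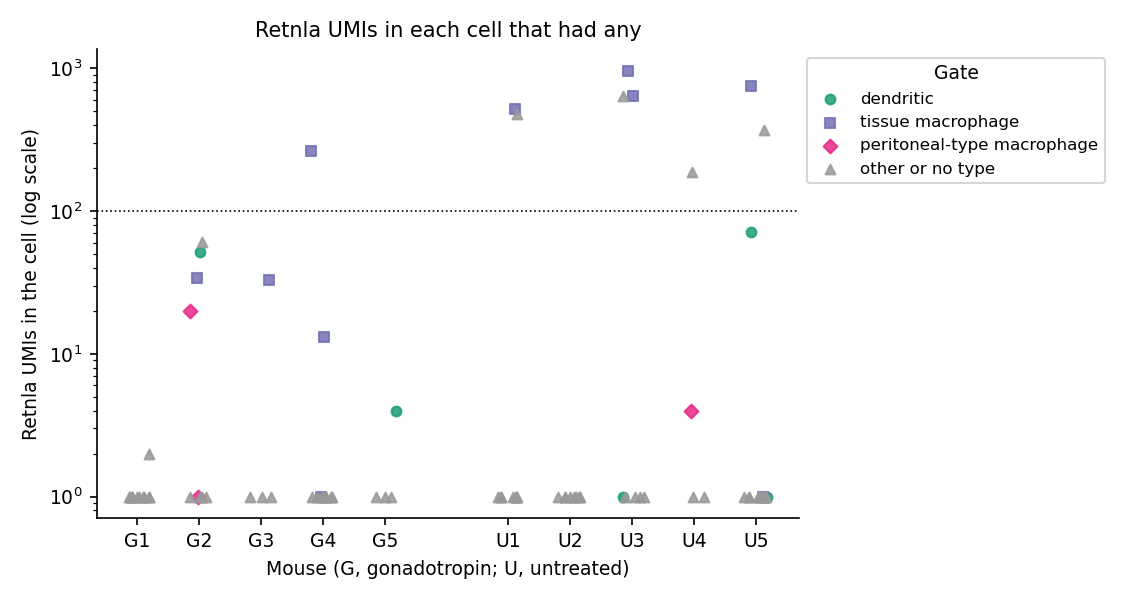
Retnla UMIs in each cell that had at least 1 (log scale), by mouse, with gonadotropin mice (G) left and untreated mice (U) right and symbols for the gate. Above the dotted line at 100 UMIs lie 1 gonadotropin cell and 8 untreated cells, from untreated mice 1, 3, 4 and 5.

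The 9 cells were deep, with 18779 to 33782 UMIs and a median of 23799. Tissue macrophage-like cells had medians of 3564 and 4800 UMIs in the gonadotropin and untreated libraries. Several genes were found in all 9, and how often other myeloid cells of such depth had them was not tested. Each had Ccr2 (16 to 64 UMIs), the receptor of monocytes newly come from blood, and each had Fn1 (92 to 248), H2-Aa (38 to 163), Cd226 (3 to 30), Lyz1 (1 to 282) and F13a1 (5 to 69). None had a UMI of Chil3, of the dendritic receptor gene Flt3, of the peritoneal macrophage factor gene Gata6, or of the resident macrophage genes Lyve1 and Timd4. C1qa was found in 4 of the 9, at 1 to 154 UMIs, C1qb in 8, at up to 152, and C1qc and Mertk in 4 each. Adgre1 was found in all 9, at 1 to 5 UMIs, and the dendritic gate marker Zbtb46 in 2, at 1 UMI each. The gate placed 5 among tissue macrophage-like cells, left 3 tied between types and placed 1 with T cells, which had 4 Cd3e UMIs. Clustering without the 10 genes put 6 of the 9 with the dendritic-like cluster and 3 with a tissue macrophage-like cluster. A Retnla level by gate therefore depends on where these cells fall.

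Over all CD45+ cells, Retnla stood at 3.18, 50.8, 13.8, 40.3 and 2.44 CPM in gonadotropin mice 1 to 5, against 233, 1.54, 701, 75.8 and 185 CPM in untreated mice 1 to 5. Of the untreated mice, 4 lay above all gonadotropin mice and mouse 2 lay below them all. Retnla fell in gonadotropin mice, to 22.1 ± 22.2 CPM against 239 ± 273 CPM in untreated mice (SD, n = 5 each), a log2 change of -3.40 ± 0.98 (SE) with an adjusted p of 0.0462 in edgeR's test. It was the 1 member called among the 8 tested in all CD45+ cells, where 9.12% of 11266 genes were called, 4.97% higher and 4.15% lower. The call was lost without any 1 of gonadotropin mice 1, 3, 4 or 5 or untreated mice 1, 3 or 5, with adjusted p-values of 0.0832, 0.0932, 0.0758 and 0.0980 and of 0.0675, 0.122 and 0.0666 in that order (edgeR), and the change was -2.46 without untreated mouse 3.

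Barcodes with more than 1 hashtag, called doublets by the authors and left out above, held more Retnla UMIs over both libraries together than the single-hashtag barcodes. Whether they carried cells of several mice was not tested. In them Retnla had 4446 UMIs in the gonadotropin library and 3771 in the untreated library (371 and 383 CPM), with 12 and 8 barcodes at 100 UMIs or more. Over all barcodes it had 4960 and 8426 UMIs, or 153 and 265 CPM. The single-hashtag cells alone had 25.5 and 213 CPM, so the gap between the libraries was narrower once all barcodes were counted. With 1 library each, that gap has no replicate check.

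In tissue macrophage-like cells, Retnla had 345 UMIs in 5 of 112 gonadotropin cells and 2868 in 5 of 48 untreated cells. Mice with at least 10 such cells gave a log2 change of -4.70 ± 1.28 (SE), which did not pass edgeR's test (adjusted p = 0.504, 5 gonadotropin and 3 untreated mice). Among the 2760 genes tested there, 0.0362% were called. In the 4 gated types together the change was -3.98 ± 1.33 (adjusted p = 0.386, edgeR), where 0.0702% of 5694 genes were called and none of the 10. Monocyte-like cells had 2 Retnla UMIs in 114 gonadotropin cells and 1 in 79 untreated cells.

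Chil3, the chitinase-like protein Ym1, was found mostly in monocyte-like cells. It was detected in 55 of 114 gonadotropin and 42 of 79 untreated monocyte-like cells, with 604 and 612 UMIs. Over both libraries 1216 of its 1520 UMIs lay in the monocyte gate, and 97.6% in the 4 gated types. Tissue macrophage-like cells had 193 UMIs in 23 of 112 gonadotropin cells and 57 in 5 of 48 untreated cells (195 and 142 CPM). Peritoneal macrophage-like cells had it in 2 of 8 and 2 of 11. Clustering without the 10 genes split most monocyte-like cells between 2 clusters. The cluster led by Lyz2, Ifitm3 and S100a4 had Chil3 in 83 of 103 cells at 969 CPM, and the cluster led by Adgre4, Ace and Itgal, genes known from patrolling non-classical monocytes, had it in 22 of 100 at 64.6 CPM. Against the other 3 types, 18.9% of genes were called in monocyte-like cells, 11.6% higher and 7.31% lower, and 4 of the 10 members were. Chil3 (adjusted p = 4.75e-06) and F13a1 (adjusted p = 0.0386) were higher and Clec10a (adjusted p = 0.00500) and Mgl2 (adjusted p = 0.0298) lower in edgeR's test. F13a1 lost the call without any 1 of gonadotropin mice 4 and 5 and untreated mice 2 and 3, with adjusted p-values of 0.0858, 0.0609, 0.0545 and 0.0526 in that order, and with clusters in place of gates (adjusted p = 0.279, edgeR). Its pooled levels were 772 and 473 CPM in gonadotropin and untreated monocyte-like cells, and 727 and 594 CPM in tissue macrophage-like cells.

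In monocyte-like cells Chil3 stood at 319, 432, 379, 615 and 537 CPM in gonadotropin mice, against 270.4, 537, 894, 668 and 991 CPM in untreated mice. Untreated mouse 1, with 5 monocyte-like cells, was lowest of all, and the groups overlapped. Over mice with at least 10 such cells it averaged 456 ± 120 CPM in 5 gonadotropin mice and 732 ± 234 CPM in 3 untreated mice, a log2 change of -0.67 ± 0.21 (SE) that did not pass (adjusted p = 0.241, edgeR). There 0.439% of 4326 genes were called, 0.0462% higher and 0.393% lower, and none of the 10. The share of monocyte-like cells with Chil3 was 48.3% ± 12.3 in gonadotropin and 54.8% ± 8.82 in untreated mice (SD, n = 5 each, exact permutation p = 0.357, adjusted p = 0.830 over 20 tests).

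Ccl24, the eosinophil-attracting chemokine eotaxin-2, was found in 7 of 8 gonadotropin and all 11 untreated peritoneal macrophage-like cells, with 69 and 121 UMIs (347 and 575 CPM; counting intervals 270.3 to 440 and 477 to 687). Their gate asked for at least 3 of 12 markers, Gata6 and Timd4 among them, so a cell need not have had either. The 4 gonadotropin mice that had such cells had 53 UMIs in 3 cells, 6 in 2, 5 in 2 and 5 in 1. The untreated mice had 39 in 1 cell, 6 in 1, 19 in 2, 10 in 1 and 47 in 6, so each mouse with these cells had Ccl24. In tissue macrophage-like cells Ccl24 had 80 UMIs in 19 of 112 gonadotropin cells and 94 in 10 of 48 untreated cells.

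Untreated mouse 5 alone had at least 5 peritoneal macrophage-like cells, so no replicated test against the other types could be made, and that single sum also stands in the average the other types were tested against. Monocyte-like cells had 0 and 1 Ccl24 UMIs and dendritic-like cells none. Over all CD45+ cells Ccl24 averaged 8.71 ± 11 CPM in gonadotropin and 10.5 ± 8.25 CPM in untreated mice (SD, n = 5 each), and the log2 change of -0.39 ± 0.75 did not pass (adjusted p = 0.817, edgeR).

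Of the enzymes, F13a1 encodes the A subunit of coagulation factor XIII, the transglutaminase that cross-links fibrin. It was detected in more cells than any other of the 10 genes, in 130 gonadotropin and 77 untreated cells with 1810 and 867 UMIs. Monocyte-like cells had it in 57 of 114 and 35 of 79 (970 and 380 UMIs) and tissue macrophage-like cells in 53 of 112 and 20 of 48 (720 and 239 UMIs). Like Chil3, it lay in the Lyz2, Ifitm3 and S100a4 cluster of monocytes, in 94 of 103 cells, and was found in 4 of 100 cells of the Adgre4 and Ace cluster. Of the 97 monocyte-like cells with Chil3, 71 also had F13a1, against 21.9% of those without Chil3.

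Over all CD45+ cells F13a1 stood at 61.0, 63.8, 185, 75.5 and 114 CPM in gonadotropin mice, against 13, 9.40, 53.3, 57.4 and 68.3 CPM in untreated mice. Untreated mouse 5 lay above the lowest 2 gonadotropin mice, and the other 4 lay below all of them. The means were 99.8 ± 52 and 40.3 ± 27.1 CPM (SD, n = 5 each), a log2 change of 1.24 ± 0.47 (SE) that did not pass (adjusted p = 0.122, edgeR). The monocyte-like share was 4.84% ± 1.15 in gonadotropin mice and 3.04% ± 1.42 in untreated mice (SD, n = 5 each, exact permutation p = 0.0714, adjusted p = 0.143 over 4 types), and the part of cell shares in the F13a1 sums was not tested. Within monocyte-like cells F13a1 stood at 645, 422, 870.4, 707 and 1127 CPM in gonadotropin mice and 166, 126, 817, 644 and 605 CPM in untreated mice, with a log2 change of 0.77 ± 0.33 (adjusted p = 0.434, edgeR).

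Cbr2, carbonyl reductase 2, was found in 33 of 112 gonadotropin and 5 of 48 untreated tissue macrophage-like cells, with 91 and 6 UMIs. The gonadotropin mice stood at 155, 140.3, 82.8, 42.8 and 108 CPM and the untreated mice at 0, 123, 10.6, 26.6 and 6.58 CPM. Untreated mouse 2, with 3 UMIs in 7 cells, reached the gonadotropin range, and the other 4 lay below it. Over mice with at least 10 such cells the means were 106 ± 45.0 CPM in 5 gonadotropin mice and 14.6 ± 10.6 CPM in 3 untreated mice, a log2 change of 3.16 ± 0.74 (SE, unadjusted p = 0.000956). It did not pass after adjustment (adjusted p = 0.377, edgeR), and with untreated mice of at least 5 cells let in it was filtered out for low counts.

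The share of tissue macrophage-like cells with Cbr2 was 29.7% ± 8.33 in gonadotropin mice and 11.4% ± 10.5 in untreated mice (SD, n = 5 each, exact two-sided permutation p = 0.0317). Over the 20 shares compared the adjusted p was 0.635, and no share passed. After thinning to 2000 UMIs per cell, with 33 gonadotropin and 9 untreated cells left out as shallower, the shares were 20.1% ± 16.2 and 10.5% ± 6.49 (n = 5 each, exact permutation p = 0.278). The smallest p after thinning was for Ccl24 in these cells, with shares of 4.59% ± 5.46 and 15.9% ± 5.81 (exact permutation p = 0.0159, adjusted p = 0.317). Monocyte-like cells had only 3 Cbr2 UMIs in 114 gonadotropin cells and 7 in 79 untreated cells. The difference between the Cbr2 change in tissue macrophage-like and in monocyte-like cells was 5.40 ± 1.25 on the log2 scale (adjusted p = 0.461, edgeR). None of 6644 genes passed that test, a background of 0%, with 339 at an unadjusted p under 0.05. With mice of at least 5 cells the Cbr2 difference was 3.41 ± 1.37 and did not pass.

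Folr2, folate receptor beta, the receptor of this set that takes up folate, also had most of its UMIs in the tissue macrophage gate. It was found in 24 of 112 gonadotropin and 6 of 48 untreated tissue macrophage-like cells, with 117 and 20 UMIs. The gonadotropin mice stood at 42.2, 117, 162, 118 and 44.8 CPM and the untreated mice at 106, 164, 10.6, 26.6 and 26.3 CPM. Untreated mouse 2, with 7 cells, was highest of all, mouse 1, with 9 cells, lay within the gonadotropin range, and the other 3 lay below it. The log2 change over the mice with at least 10 cells was 2.35 ± 0.63 (SE) and did not pass (adjusted p = 0.504, edgeR), and it was 1.01 with mice of at least 5 cells. Of the 30 cells with Folr2, 16 also had Cbr2, against 16.9% of those without Folr2. The cells with Folr2 were deep, with a median of 19863.5 UMIs against 3433.5 without it. Those with Cbr2 were shallow, with 2819 against 4535.5, and the part of depth in this overlap was not tested.

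Against the other types, 4.34% of genes were called in tissue macrophage-like cells, 3.54% higher and 0.8% lower, and 6 of the 10 members were called, each higher. They were Retnla and Arg1 (both adjusted p = 8.73e-07), Folr2 (adjusted p = 4.72e-06), Ccl24 (adjusted p = 0.000179), Cbr2 (adjusted p = 0.00673) and Mgl2 (adjusted p = 0.0210) in edgeR's test. Higher than the average of the other types did not mean highest of all types. Mgl2 stood at 529.5 and 277 CPM in gonadotropin and untreated dendritic-like cells, against 63.6 and 172 CPM in tissue macrophage-like cells. In peritoneal macrophage-like cells Ccl24 stood at 347 and 575 CPM, against 80.7 and 234 CPM. Arg1 stood at 398 and 0 CPM there, against 95.9 and 211 CPM. The tested average held 1 peritoneal macrophage-like sum, from untreated mouse 5, with no Arg1 UMI. The gonadotropin peritoneal macrophage-like cells did not enter, so the Arg1 call does not show a level above an average that includes them. Mgl2 lost the call without untreated mouse 4 (adjusted p = 0.0620). With clusters in place of gates Retnla, Folr2 and Cbr2 were called and Arg1, Ccl24 and Mgl2 were not. Of the 160 tissue macrophage-like cells, 87 and 58 lay in 2 clusters, 10 in the monocyte cluster led by Lyz2, Ifitm3 and S100a4, 3 in the dendritic-like cluster and 2 in the Adgre4 and Ace cluster. The 3 included the Retnla cells with 963 and 638 UMIs. Of the 2 clusters, a deep one of 75 cells had a median of 15326 UMIs. It had F13a1 in 59 cells, Folr2 in 22, Ccl24 in 20, Arg1 in 18, Cbr2 in 16 and Mgl2 in 13. A shallow one of 88 cells, led by C1qc, C1qa and C1qb, with a median of 2069 UMIs, had Mgl2 in 34 and Cbr2 in 25 cells, F13a1 in 17, Folr2 in 11, Ccl24 in 6 and no Arg1.

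**Figure D4:**
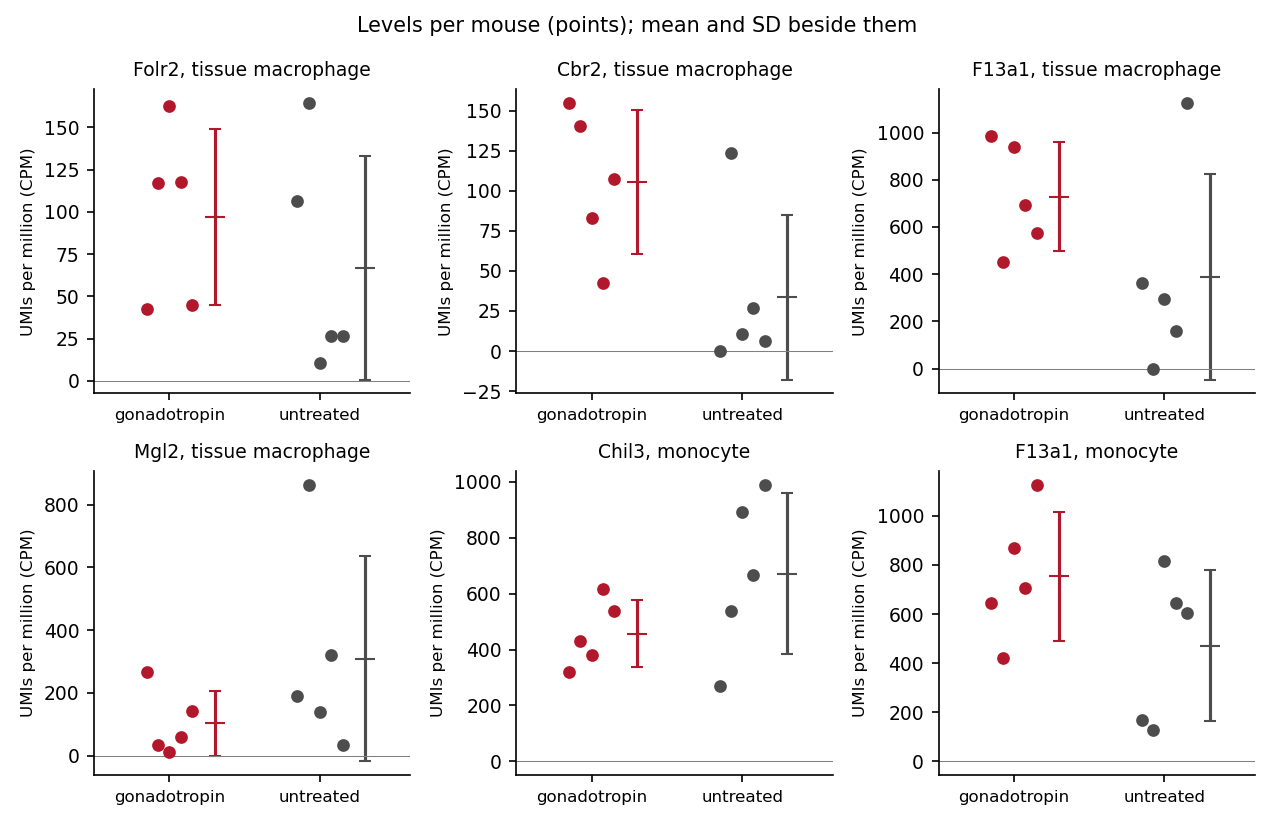
Levels (CPM, over the mouse's cells of that type) of Folr2, Cbr2, F13a1 and Mgl2 in tissue macrophage-like cells and of Chil3 and F13a1 in monocyte-like cells, 1 point a mouse with at least 5 such cells, mean and SD beside them, gonadotropin left and untreated right. The groups overlap in every panel.

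In barcodes with more than 1 hashtag Folr2, Cbr2, Arg1 and F13a1 stood further apart between the libraries than in single-hashtag barcodes, and Ccl24 turned direction, with 158 and 222 UMIs in the gonadotropin and untreated single-hashtag barcodes. Folr2 had 628 UMIs in the gonadotropin and 25 in the untreated library, Cbr2 359 and 11, Arg1 1095 and 205, F13a1 3574 and 662, and Ccl24 415 and 103. The tissue macrophage gate applied to these barcodes held 124 gonadotropin and 15 untreated ones; the same gate held 112 and 48 barcodes with 1 hashtag. Tissue macrophage-like barcodes of all hashtag classes had Folr2 at 153 and 57.3 CPM and Cbr2 at 93.7 and 20.1 CPM in the gonadotropin and untreated libraries. These are 1 value per library, with no replicate check.

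**Figure D5:**
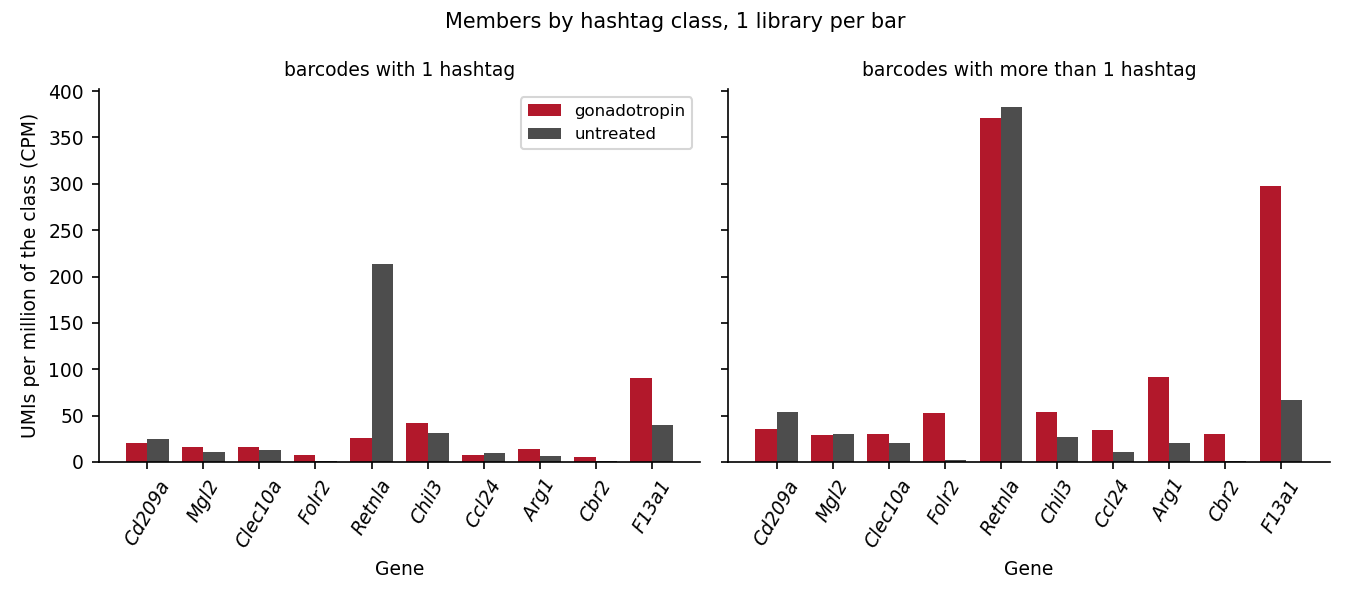
Levels (CPM, over the class) of the 10 genes in barcodes with 1 hashtag (left) and with more than 1 (right), gonadotropin bars left of untreated bars, 1 library each. Retnla stood at 25.5 and 213 CPM in the left panel and at 371 and 383 CPM in the right one.

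Arg1, arginase 1, which splits arginine to ornithine and urea, was found in 51 gonadotropin and 27 untreated cells, with 278 and 138 UMIs. Peritoneal macrophage-like cells had 79 UMIs of it in 6 of 8 gonadotropin cells, 67 of them in the 3 cells of mouse 2. Of the 11 untreated cells 0 had a UMI. By the 3-count limit that bounds the share of cells with a UMI, not of cells expressing the gene, at 27.3%, and the exact 95% interval reaches 28.5%. The difference rests on 8 and 11 cells and was not tested. In tissue macrophage-like cells it had 95 UMIs in 15 of 112 gonadotropin cells, from mice 2, 3 and 4, and 85 UMIs in 2 of 48 untreated cells, both from mouse 5 (95.9 and 211 CPM). With clusters in place of gates the direction turned: tissue macrophage-like clusters had 123 UMIs in 18 of 116 gonadotropin cells and none in 47 untreated cells. The untreated Arg1 then lay in the monocyte cluster led by Lyz2, with 86 UMIs in 3 of 42 cells. Over all CD45+ cells Arg1 averaged 15.6 ± 15.3 CPM in gonadotropin and 5.48 ± 5.37 CPM in untreated mice (SD, n = 5 each; log2 change 1.30 ± 0.70, adjusted p = 0.281, edgeR).

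Of the Arg1 UMIs, 96 of 278 in gonadotropin and 48 of 138 in untreated cells lay outside the myeloid panel. There 16 gonadotropin and 7 untreated cells had at least 2 Arg1 UMIs. Of these, 14 and 6 had Gata3, 11 and 6 had Il1rl1, the receptor of interleukin-33, 15 and 7 had Rora and 14 and 7 had Il7r, while 2 and 1 had Cd3e. Among cells outside the panel with no Arg1, Il1rl1 was found in 1.10% of 1814 gonadotropin and 0.719% of 1946 untreated cells. The lymphoid genes were listed after these cells had been seen, and no type name is given to them.

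The IL-4 and STAT6 pathway around these genes was read through 29 further genes, and other lists through 28 C-type lectins, 11 arginine and polyamine genes, 20 genes of resident Lyve1 and Folr2 macrophages and 9 chemokine genes. Over all CD45+ cells, 1 of 24 tested IL-4 pathway genes rose and 1 fell, where 9.12% of all genes were called: Tyk2, a Janus kinase, with a log2 change of 0.32 ± 0.09 (adjusted p = 0.0460), and Irf4, a transcription factor of alternative activation and of B cells, with -0.59 ± 0.09 (adjusted p = 0.00215, edgeR). The list's median log2 change was 0.09, against -0.0029 over all genes tested. Of 15 tested lectins 3 rose, Clec4a1 (0.86 ± 0.20, adjusted p = 0.0177), Clec4a3 (0.85 ± 0.18, adjusted p = 0.0122) and Clec12a (0.64 ± 0.18, adjusted p = 0.0467), with a list median of 0.27. Clec12a lost the call without any 1 mouse other than gonadotropin mouse 2 or untreated mouse 4, and Tyk2 without any 1 mouse other than gonadotropin mice 1 and 2 and untreated mouse 3.

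Across all CD45+ cells 4.97% of genes were called higher and 4.15% lower. Of 12 tested resident macrophage genes 3 rose in edgeR's test, the scavenger receptor gene Stab1 (1.35 ± 0.37, adjusted p = 0.0393), the transcription factor gene Maf (0.99 ± 0.16, adjusted p = 0.00404) and Selenop, which encodes a selenium carrier (0.79 ± 0.14, adjusted p = 0.00600), with a list median of 0.89. Stab1 lost the call without any 1 mouse other than gonadotropin mice 2 and 4 and untreated mouse 3. Of 9 arginine and polyamine genes, the second arginase gene Arg2 rose (1.40 ± 0.24, adjusted p = 0.00544) and Odc1, which makes polyamines (-0.68 ± 0.13, adjusted p = 0.00764), and the arginine transporter gene Slc7a1 (-0.30 ± 0.06, adjusted p = 0.0127) fell, with a list median of -0.28. Of 4 tested chemokine genes Ccl5 rose (0.94 ± 0.21, adjusted p = 0.0148), with a list median of 0.95. The 4 myeloid types made up 11.6% of the cells of gonadotropin and 6.83% of those of untreated mice, and the part of that difference in these sums was not tested.

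Within monocyte-like cells 2 of 11 tested IL-4 pathway genes fell and none rose, where 0.393% of all genes were called lower. Pparg, the nuclear receptor linked to lipid handling in alternative activation, averaged 184 ± 18.6 CPM in 5 gonadotropin mice and 379 ± 133 CPM in 3 untreated mice, a log2 change of -1.04 ± 0.20 (adjusted p = 0.0183, edgeR). Kdm6b, a histone demethylase induced by interleukin-4, averaged 64.6 ± 31.8 and 184 ± 43.6 CPM (-1.42 ± 0.27, adjusted p = 0.0183, edgeR). The list's median was -0.79, against -0.0015 over all genes. In edgeR's test without untreated mouse 2 Pparg lost the call (log2 change -0.71, adjusted p = 0.178), and without untreated mouse 5 Kdm6b did (-1.15, adjusted p = 0.121). Pparg also lost it without gonadotropin mouse 4 or 5, and Kdm6b without gonadotropin mouse 3. No gene of the other lists was called in monocyte-like cells, and none of any list in tissue macrophage-like cells or in the 4 types together.

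The genes whose levels moved most like each member were sought over 17 sums per mouse and type with at least 10 cells, 8 of tissue macrophage-like, 8 of monocyte-like and 1 of dendritic-like cells, so that r mostly contrasts macrophages with monocytes. Chil3 was most like Hp (r = 0.971), the gene of haptoglobin, Slfn1 (r = 0.927) and Hes1 (r = 0.926). F13a1 was most like Mpp1 (r = 0.944), Pla2g7 (r = 0.933) and Slc43a2 (r = 0.902). Folr2 went with Timp2 (r = 0.946), Ltc4s (r = 0.924) and the complement gene C1qa (r = 0.916), Ccl24 with Timp2 (r = 0.939), C1qa (r = 0.918) and C1qb (r = 0.915), and Mgl2 with Fcrls (r = 0.926), Mt1 (r = 0.923) and the mannose receptor gene Mrc1 (r = 0.922). Hp is a marker of the monocyte gate, and C1qa and C1qb are markers of the tissue macrophage gate. The sums were made by those gates, so a high r with these genes was partly built in.

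Retnla was nearest to Pid1 (r = 0.881), Hspa5 (r = 0.863) and Rbpj (r = 0.839), Clec10a to Tmem176a (r = 0.879), Arhgap18 (r = 0.833) and Cpq (r = 0.812), and Arg1 to Ednrb (r = 0.823), Itgam (r = 0.808) and Sdc3 (r = 0.795). Cbr2, with few UMIs, was nearest to C1qa (r = 0.847), Stab1 (r = 0.845) and Arrb2 (r = 0.833). Cd209a, with 1 dendritic-like sum, reached 0.745 with Trerf1. With 26 sums of at least 5 cells, an alternative chosen after seeing the data, Cd209a was most like Klrd1 (r = 0.902), Syngr2 (r = 0.829) and Cst3 (r = 0.805). That setting kept the 3 genes of Chil3 and replaced all 3 of Mgl2, Clec10a, Arg1, F13a1 and Cbr2, with Tmem176b (r = 0.891), Pkib (r = 0.849), Snx2 (r = 0.706), Abcd2 (r = 0.938) and Ftl1 (r = 0.841) first. Retnla kept Pid1 and Rbpj, and Folr2 and Ccl24 kept C1qa. All r are Pearson correlations of log2 CPM, given as descriptions of sums that share mice and 2 libraries.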

How the data were processed

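The authors deposited raw UMI counts per gene and barcode for 1 gonadotropin and 1 untreated library, with hashtag calls that tie barcodes to mice. Per the submitters' processing notes, bcl2fastq, Cell Ranger, Seurat and mm10 were used, with versions not given in the sources used here. Kept cells had 1 hashtag, at least 500 genes and under 10% mitochondrial UMIs. Barcodes called as hashtag doublets (693 gonadotropin, 655 untreated) were left out except where named, and no further doublet caller was run. A myeloid cell had at least 5 of 9 myeloid markers and took the type with the highest share of its markers detected (at least 3). Ties stayed unnamed.

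UMI counts were summed per mouse and tested with edgeR 4.0.16 (R 4.3.3; TMM, filterByExpr, quasi-likelihood test, Benjamini-Hochberg over all genes tested, threshold 0.05). Fits within a type used mice with at least 10 cells of it, fits of the 4 types together mice with at least 20, and fits between types used sums of at least 5 cells with mouse as a term. Shares per mouse were compared by exact two-sided permutation tests, whose smallest p for 5 against 5 mice is 0.00794. CPM scales UMIs to a sum of 1000000. Intervals are exact 95% and, like the 3-count limit for 0, cover counting error only. Clusters were made with scanpy 1.11.5 (Leiden, resolution 0.6, 1500 variable genes, 20 components, 15 neighbors) without the 10 genes. The fitting code was tested on simulated data.

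The alternatives were DESeq2 1.42.0, no filter, leaving out each mouse, the hashtag number as a block, other cell minimums, clusters or a stricter gate, all single-hashtag barcodes, and thinning. Hashtag numbers did not pair mice, with correlations of same-numbered mice from -0.41 to 0.23. Named genes are the 10, list genes that passed, and the 3 genes most like each of the 10. Genes and lists were chosen with earlier results of these data known. Protein identity was not analysed here.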

Additional observations from a re-analysis of the deposited data

Results flagged for a closer look

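In 4 of 41 groups of 5 mice tested for a sample far from the others, 1 mouse stood apart. The cut is made to flag about 1 in 20 groups of normally distributed values. Levels from few UMIs are not such values, and the groups share cells, so the 4 cannot be set against that rate. Retnla in tissue macrophage-like cells stood at 990.4 CPM in gonadotropin mouse 4, where 1 cell held 264 of 278 UMIs, and the next mouse had 159 CPM. Clec10a stood at 34.9 CPM over all CD45+ cells of gonadotropin mouse 2, with the next mouse at 15.9 CPM. Clec10a in tissue macrophage-like cells stood at 247 CPM in untreated mouse 2, from 6 UMIs in 7 cells, with the next mouse at 79.0 CPM. Arg1 in tissue macrophage-like cells stood at 559 CPM in untreated mouse 5, with 53 of 85 UMIs in 1 cell, and the other 4 untreated mice had none.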

How the results depend on the processing

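Retnla over all CD45+ cells kept its direction under every alternative run, from -3.82 to -2.46 on the log2 scale without 1 mouse, but was past the threshold in 3 of those 10 fits. With the hashtag number as a replicate block it was -2.85 (adjusted p = 0.221, edgeR), and the numbers do not pair the mice. That block raised F13a1 past the threshold (log2 change 1.39, adjusted p = 0.0331). Genes called over all CD45+ cells numbered 682 to 1063 without 1 mouse, against 1027. In the 4 types together 4 genes were called, against 34 with DESeq2, 107 with no filter, 8 with the block, 8 with clusters and 0 to 11 without 1 mouse. In tissue macrophage-like cells 1 gene was called, against 3 with DESeq2, 74 with no filter, 7 with the block, 0 with mice of at least 5 cells and 0 to 1 without 1 mouse. In monocyte-like cells 19 were called, against 69 with no filter, 2 with mice of at least 5 cells and 7 to 23 without 1 mouse. With no filter, Cbr2 (adjusted p = 0.00282) and Folr2 (adjusted p = 0.0204) passed in tissue macrophage-like cells, and Chil3 (adjusted p = 0.00820) and F13a1 (adjusted p = 0.00124) in monocyte-like cells (edgeR). The cause was not tested.

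Of the 10 genes, 6 were called in tissue macrophage-like against other cells, 3 in untreated mice alone, 3 with clusters and 6 to 7 without 1 mouse. In monocyte-like cells 4 were called, 2 in untreated mice alone and 3 to 7 without 1 mouse. The share of dendritic-like cells differed by -0.059 percentage points, by 0.0818 with clusters and by -0.38 to 0.171 without 1 mouse. That of peritoneal macrophage-like cells differed by -0.029, and by -0.128 to 0.0709 without 1 mouse. Uncalled log2 changes whose direction turned without 1 mouse ranged over all CD45+ cells from -0.68 to 0.088 for Cd209a, from -0.00087 to 0.77 for Clec10a and from -1.54 to 0.050 for Ccl24. In the 4 types they ranged from -0.48 to 0.041 for Mgl2 and from -1.83 to 0.089 for Ccl24. In tissue macrophage-like cells they ranged from -1.33 to 0.097 for Mgl2 and from -1.93 to 6.76 for Arg1, the highest without untreated mouse 5, where the untreated sums held no Arg1 UMI and the value is no bound. The share of monocyte-like cells with Clec10a differed by 4.07 percentage points before thinning and by -2.14 after it. Fits with at least 20 cells of a type per mouse were not run, since too few mice had them.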
